A study of Mus musculus with 2 samples.

Results

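CD62L-high CD4 T cells were described in the visceral adipose tissue of mice given normal drinking water (NW) or antibiotics (ABX). The members were 161 of 25198 cells, 43 of 12474 in the NW library and 118 of 12724 in the ABX library. They were chosen by measured values, namely at least 1 UMI (a counted original molecule) of Cd3e, Cd3d or Cd3g, at least 10 UMIs of the CD4 antibody, 15 of the TCRb antibody and 20 of the CD62L antibody. Cells with any Il1rl1, Foxp3 or Cdh5 UMI, or with 5 or more C1q UMIs, were left out, which set aside ST2-expressing and regulatory T cells, endothelial cells and macrophages. These values are a property of the choice and are given below only as a description.

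Both libraries held CD45+ cells enriched on magnetic columns from the epididymal white adipose tissue of male wildtype C57BL/6 mice aged 15 weeks and kept under specific pathogen free conditions. Only the drinking water differed between the groups by their labels. The study's methods name ampicillin, streptomycin, colistin and vancomycin, alone or mixed, and which of them the sequenced ABX mice had received was not given in the sources used here. There was 1 library per condition and the number of mice behind each was not given, so no test between conditions was possible and no p-value is given. Each interval below is a 95% interval that covers counting error only, not the spread between mice. Intervals of expression levels and of their ratios treat each UMI as independent, and so leave out the spread between cells as well.

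Naive CD4 T cells circulate between blood and lymph nodes. The adhesion receptor CD62L lets them tether in the venules of lymph nodes, and the chemokine receptor Ccr7 guides them inside. The transcription factors Lef1 and Tcf7 maintain the naive state, and Klf2 drives the egress receptor S1pr1. After activation T cells shed and silence CD62L and raise the adhesion receptor CD44, so that CD62L and CD44 antibodies together part naive from effector and memory cells. Most CD4 T cells that reside in adipose tissue are of the effector or memory kind.

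The 4 genes that mark the resting cells were Ccr7 (chromosome 11, 99144196 to 99155077, minus strand), Lef1 (chromosome 3, 131110471 to 131224356, plus strand), Tcf7 (chromosome 11, 52252371 to 52283014, minus strand) and Igfbp4 (chromosome 11, 99041244 to 99054392, plus strand), all as annotated on GRCm38 in GENCODE. The 250 bases before the most upstream start are shown for Lef1 and Igfbp4, the pair of these markers whose level differed most between the libraries over all members, though not in CD62L-dominant members alone. They come from RefSeq's GRCm38.p6 promoter windows, chr3:131110047-131110296 and chr11:99040994-99041243, both on the plus strand, and the capitals mark CACCC on either strand, the core letters that Klf2 and its relatives bind.
Lef1: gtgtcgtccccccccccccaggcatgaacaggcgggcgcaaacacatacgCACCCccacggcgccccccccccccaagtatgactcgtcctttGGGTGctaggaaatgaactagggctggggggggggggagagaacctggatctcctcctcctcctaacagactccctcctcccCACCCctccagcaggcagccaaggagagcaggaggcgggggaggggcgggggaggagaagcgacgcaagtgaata
Igfbp4: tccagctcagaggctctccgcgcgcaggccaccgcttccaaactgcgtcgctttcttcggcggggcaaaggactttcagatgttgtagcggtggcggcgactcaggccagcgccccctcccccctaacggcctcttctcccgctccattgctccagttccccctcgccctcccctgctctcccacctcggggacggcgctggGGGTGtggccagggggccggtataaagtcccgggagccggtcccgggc
The Lef1 window held 3 matches of CACCC (or its reverse, GGGTG) and the Igfbp4 window held 1. Of 32851 promoter windows, 52.0% held this pentamer, so that its presence did not set these windows apart. Neither window held CTTTGA of the TCF/LEF family (in 13.8% of windows), TGTGGT of RUNX (14.05%) or GTAAACA of FOXO (3.17%), each searched on both strands. A match to these letters is a description and not a binding site.

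The members were first divided by the CD8b antibody, which the rule did not use, relative to the CD62L antibody, which it did. This division is therefore not a check of the label that is independent of the rule. In most members the CD62L antibody outnumbered the CD8b antibody, and these are called CD62L-dominant members (22 in NW and 95 in ABX). In the other members the CD8b antibody was as high as or higher than CD62L, and the antibodies against NK1.1, CD25 and CD69 were high as well. These 21 NW and 23 ABX cells are called broadly stained members, a name and a limit chosen after the values were seen.

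Among broadly stained members the median CD8b antibody count was 190 (NW) and 350 (ABX), against 10.5 and 7 in CD62L-dominant members. This contrast follows from how the kinds were defined and is only a description. For NK1.1, which the definition did not use, the medians were 484 and 598 against 21 and 15. The CD4 antibody was lower in broadly stained members, at medians of 43 and 21 against 100 and 90. The 6 antibodies that neither the rule nor the split by CD44 used were CD25, CD69, CD8b, CD1d, CD3 and NK1.1. Together they reached at least 500 UMIs in 16 of 43 NW and 24 of 118 ABX members. Over all cells they did so in 460 of 12474 (3.69%) and 455 of 12724 (3.58%), and in 2 of 219 and 1 of 220 CD62L-low CD4 T cells. Members needed at least 20 CD62L antibody UMIs and CD62L-low cells fewer than 10, so the choice itself can part cells stained by many antibodies. Cd4 mRNA was found in 81.8% and 77.9% of CD62L-dominant members but in 33.3% and 13.0% of broadly stained members. The methods of the study do not list the CD3 and NK1.1 antibodies, which the files name. Cells high in these antibodies and with little Cd4 mRNA do not match the label of a resting CD4 T cell. Main values are therefore given with and without them, and "resting" is not used for the members as a whole.

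CD44 divided the members further. Members with fewer than 100 CD44 antibody UMIs (CD44-low) numbered 16 in NW and 70 in ABX, and those with 100 or more (CD44-high) numbered 27 and 48. Only 3 NW and 4 ABX members lay between 80 and 120, so few cells depended on the limit, which was also chosen after the values were seen. All but 1 of the CD44-low members were CD62L-dominant, whereas CD44-high members comprised 7 CD62L-dominant and 20 broadly stained cells in NW and 25 and 23 in ABX. The median CD69 antibody count, a sign of recent activation or of residence in tissue, was 6 and 4 in CD44-low members. It was 8 and 6.5 in CD62L-low CD4 T cells and 7 in macrophages of both libraries, so that it hardly set these cells apart.

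**Figure D1:**
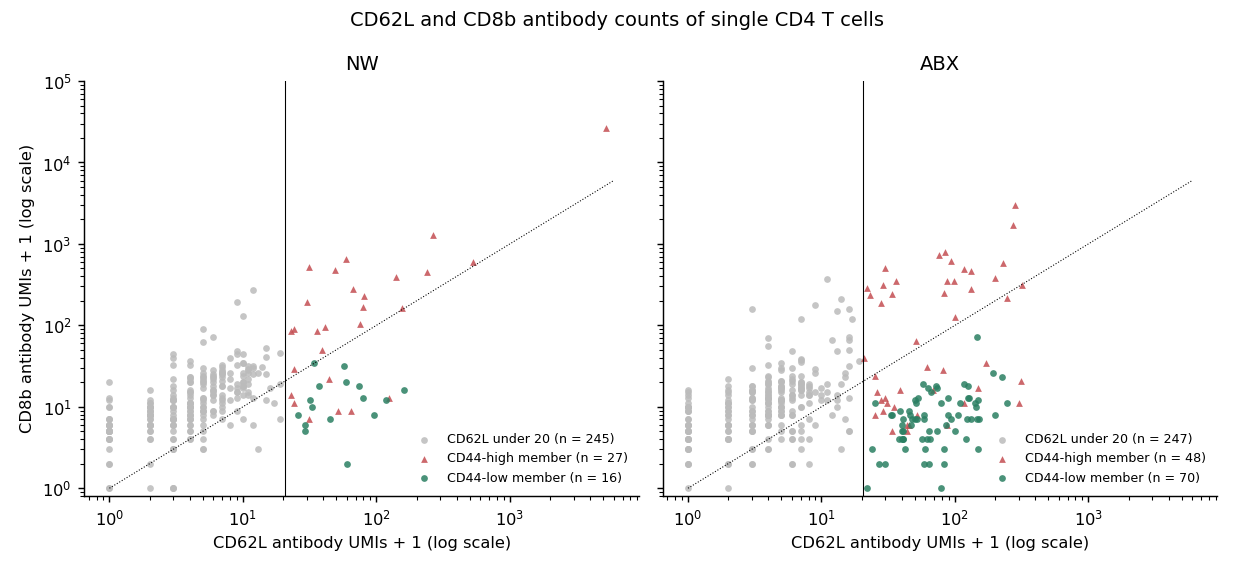
CD62L antibody UMIs (x axis, plus 1, log scale) against CD8b antibody UMIs (y axis, plus 1, log scale) of each CD4 T cell in the NW (left) and ABX (right) library, with the vertical line at the CD62L limit and the dotted line where both counts are equal. CD44-low members (16 and 70 cells) lie below the dotted line but for 1 cell, and the members above it are CD44-high, again but for that cell.

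The members made up a larger share of the tissue's immune cells in the ABX library, and the excess lay mostly in the CD62L-dominant cells. Of these the CD44-low cells numbered 15 in NW and 70 in ABX and the CD44-high cells 7 and 25. CD62L-low CD4 T cells, their counterpart with fewer than 10 CD62L antibody UMIs, had nearly the same share in both. In NW members were 0.345% (0.250 to 0.464) of the cells and in ABX they were 0.927% (0.768 to 1.11), a ratio of 2.69 (1.90 to 3.81). CD62L-low CD4 T cells were 1.76% and 1.73%, a ratio of 0.985 (0.818 to 1.19).

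Read per kind of member, the difference was uneven. CD44-low members were 0.128% (0.0733 to 0.208) of the cells in NW but 0.550% (0.429 to 0.695) in ABX, 4.29-fold higher (2.49 to 7.38). CD62L-dominant members were 0.176% and 0.747%, 4.23-fold higher (2.66 to 6.73). Broadly stained members differed little, at 0.168% and 0.181%, a ratio of 1.07 (0.595 to 1.94), and so made up 48.8% of NW but 19.5% of ABX members. CD44-high members lay between, at 1.74-fold (1.09 to 2.79).

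Among CD4 T cells that passed every limit but that on CD62L (288 NW and 365 ABX cells), members were 14.9% (11.02 to 19.6) and 32.3% (27.6 to 37.4). CD62L-dominant members were 7.64% and 26.0% of the same cells, a ratio of 3.41 (2.20 to 5.28). The CD4 T cells themselves were 2.31% and 2.87% of all cells, a ratio of 1.24 (1.07 to 1.45). That ratio turned to 0.689 (0.629 to 0.754) where the limits on Il1rl1, Foxp3, C1q and Cdh5 were left out, because those limits removed more CD4 T cells from the NW library than from the ABX library. The Il1rl1 limit alone took the NW cells from 1045 to 456 and the ABX cells from 734 to 520. Without these limits members were 1.36-fold (1.09 to 1.69) as frequent among all cells in ABX and 1.97-fold (1.61 to 2.40) among CD4 T cells.

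CD62L-high CD8 T cells and B cells were also a larger share of the ABX library. CD62L-high CD8 T cells were 17 of the NW and 49 of the ABX cells, 2.83-fold higher (1.63 to 4.90), whereas CD62L-low CD8 T cells were 61 and 74, 1.19-fold (0.848 to 1.67). B cells were 271 and 821, 2.97-fold higher (2.59 to 3.40). A larger number of these cells and a smaller number of other cells in the tissue cannot be told apart from shares, and whether blood or lymph node tissue entered either preparation was not tested.

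**Figure D2:**
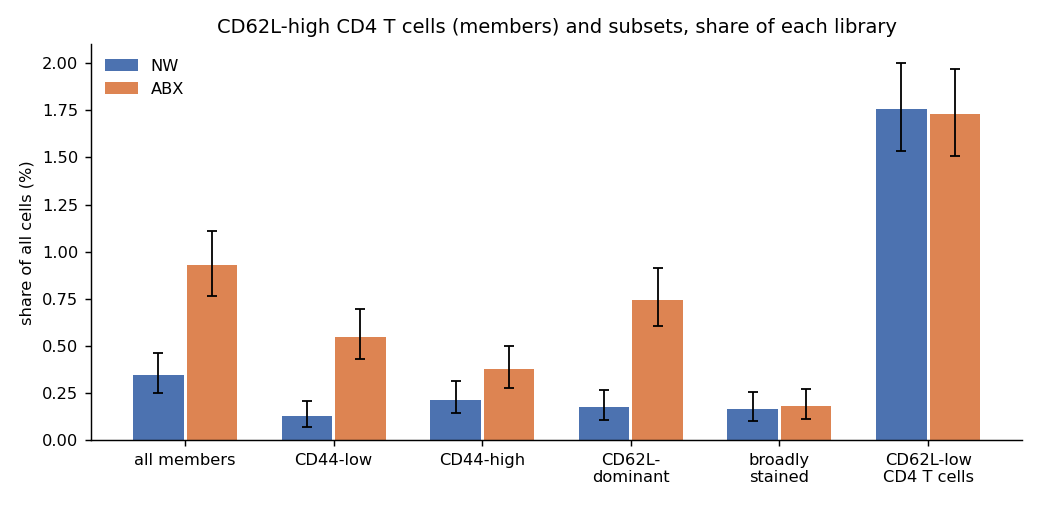
Share of all cells (percent, linear axis from 0) taken by members, their kinds and CD62L-low CD4 T cells in the NW and ABX library, as bars with exact 95% binomial intervals. CD44-low and CD62L-dominant members stand furthest apart (0.128% against 0.550% and 0.176% against 0.747%), while broadly stained members and CD62L-low CD4 T cells overlap.

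Of the markers of resting cells, Ccr7 and Igfbp4 stood highest over CD62L-low cells and Tcf7 hardly differed. Levels are counts per 1000000 UMIs (CPM), summed over the cells of a kind. They are compared between kinds of cell and between libraries, and are not to be compared between genes. Ccr7 was 206 CPM (146 to 282) in NW and 199 (161 to 243) in ABX members, 4.77-fold and 6.79-fold over CD62L-low cells. Igfbp4, an insulin-like growth factor binding protein, was 211 (150 to 289) and 345 (295 to 402), 5.77-fold and 45.5-fold. The second value rests on only 7 Igfbp4 UMIs in the ABX CD62L-low cells, against 28 in NW. Igfbp4 is also a macrophage transcript here, with a UMI in 82.9% and 70.4% of macrophages, but its share of 32.6% and 42.4% in members stood above that of 8.22% and 3.18% in CD62L-low cells.

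The transcription factors were the more widely shared. Lef1 was 368 CPM (286 to 467) and 494 (433 to 561) in members, 1.75-fold and 2.62-fold over CD62L-low cells. Tcf7 was 769 (647 to 906) and 820 (741 to 905), 1.01-fold and 1.17-fold, since CD62L-low cells carried it at 762 and 703. In macrophages, which should lack them, at most 1.82% of cells had a UMI of Ccr7, of Lef1 or of Tcf7, at median depths of 6100 and 4865 UMIs against 3484 and 3391 in the members. With each cell thinned to 1000 UMIs, Ccr7 was found in 16.9% and 17.1% of members against 2.66% and 2.79% of CD62L-low cells, and Lef1 in 25.7% and 37.3% against 19.1% and 18.6%. No NW member and 2 ABX members were too shallow to be thinned, as were 5 and 2 of the CD62L-low cells.

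Splitting the members by CD44 protein separated these genes further than the libraries did. The summed level of the 4 markers was 3420 CPM (2945 to 3950) in NW and 2999 (2774 to 3238) in ABX CD44-low members, against 781 (637 to 948) and 892 (781 to 1015) in CD44-high members and 1052 and 929 in CD62L-low cells. Lef1 was 980 and 808 CPM in CD44-low but 115 and 228 in CD44-high members. Ccr7 was 610 (420 to 857) and 301 (233 to 383) in CD44-low members but 38.3 and 112 in CD44-high members. The sum of all CD44-high members was thus below that of CD62L-low cells in NW and within its interval in ABX. Without broadly stained cells it was 1156 CPM (814 to 1593) and 1139 (976 to 1320) in CD44-high members, with intervals that overlapped those of CD62L-low cells, 981 to 1128 and 867 to 993. In the broadly stained CD44-high cells it was 659 and 532.

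The number of markers seen in a cell differed in the same way. All 4 markers were found together in 6 of 22 NW and 26 of 95 ABX CD62L-dominant members, and in none of the 21 and 23 broadly stained members, which allows a share of up to 16.1% and 14.8%. No marker was seen in 5 NW and 8 ABX members, 4 and 6 of which were broadly stained. These were 11.6% and 6.78% of members, against 12.3% and 14.1% of CD62L-low cells. All 4 markers were also found in 5 of 219 NW and 2 of 220 ABX CD62L-low cells. At these depths a missing UMI does not show that a cell lacked the gene.

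**Figure D3:**
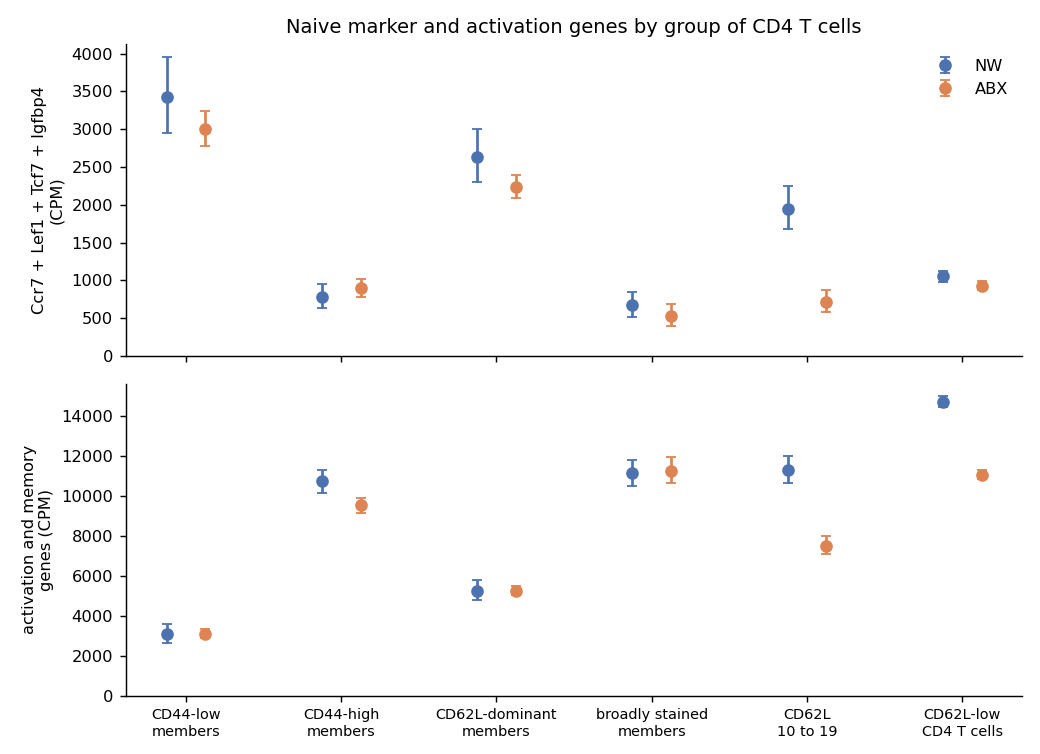
Summed level of Ccr7, Lef1, Tcf7 and Igfbp4 (top) and of the activation and memory genes (bottom), in CPM over the summed UMIs of each kind of CD4 T cell, in the NW and ABX library with exact 95% Poisson intervals. CD44-low members hold the highest marker sums, at 3420 and 2999 CPM, and the lowest activation sums, at 3069 and 3100, whereas the marker sums of CD44-high members, at 781 and 892, lie below the 1052 of CD62L-low cells in NW and overlap their 929 in ABX.

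Just inside and just outside the CD62L limit the cells were mixed, and the limit did not sit at a break. Cells with 20 to 29 CD62L antibody UMIs (9 NW and 17 ABX) had a summed marker level of 1246 CPM (901 to 1678) and 1304 (1072 to 1570). Cells with 10 to 19 (26 and 27) had 1945 (1674 to 2247) and 718 (586 to 871), which lay above the former in NW and below it in ABX. Where the CD62L antibody outnumbered CD8b, the 5 NW and 8 ABX cells with 10 to 19 held 3051 and 1895 CPM. The first of these sums overlapped that of the NW CD44-low members.

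Against CD62L-low cells, listed genes of naive and quiescent T cells were often higher in the members and those of activation and memory often lower. A gene was counted where it lay more than 1.5-fold apart the same way in both libraries, among 6384 genes with at least 20 UMIs in each. By this count 150 genes (2.35%) were higher and 350 (5.48%) were lower in members. Of 36 measured genes of naive and quiescent T cells, 17 were higher and none was lower, with a median ratio of 1.48 in NW and 1.81 in ABX, compared with medians of 0.914 and 0.965 for all genes. Of 41 measured genes of activation and memory, none was higher and 21 were lower, with a median of 0.537 and 0.517.

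Among the genes with the clearest excess, several shape the naive T cell's surface and nucleus. Satb1, a chromatin organiser of developing and naive T cells, was 417 CPM in NW and 456 in ABX members, 3.59-fold (2.61 to 4.92) and 4.38-fold (3.43 to 5.63) over CD62L-low cells. Actn1, which cross-links actin filaments, was 6.05-fold (3.91 to 9.46) and 5.46-fold (4.07 to 7.39) higher. Il6ra, which encodes the receptor chain that binds interleukin-6, was 2.25-fold and 2.23-fold higher, and Pik3ip1, an inhibitor of PI3K signalling, 2.34-fold and 2.39-fold. Rflnb, Filip1l, Trib2, Nsg2, Ikbke, Ppp1r21 and Ugcg lay between 1.99-fold and 3.62-fold.

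Within the list of naive genes several transcription factors were also higher. Klf2 was 1.52-fold and 1.99-fold higher in members, Bach2, a repressor that restrains effector programs, 1.91-fold and 3.19-fold, and Foxp1, which keeps naive cells quiescent, 1.72-fold and 1.82-fold. S1pr1, the receptor for egress into lymph, was 1.23-fold in NW and 1.93-fold in ABX and so passed the limit in ABX alone. Il7r, the receptor for the survival cytokine interleukin-7, was alike in members and CD62L-low cells, at 0.91-fold and 1.29-fold, and so were Bcl2 at 1.17-fold and 1.05-fold and Btg2 at 0.79-fold and 0.80-fold. Ly6c2 went the other way in ABX, at 0.54-fold, and was 0.83-fold in NW.

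Single genes of homing and effector function were among those lower in the members, while the trafficking list as a whole went both ways, as given below. The chemokine receptors Cxcr3 and Cxcr6 were 0.30-fold (0.18 to 0.47) and 0.34-fold (0.21 to 0.52) in NW and 0.33-fold (0.24 to 0.46) and 0.23-fold (0.15 to 0.33) in ABX. Itgb1, the beta chain of integrins that bind the tissue matrix, was 541 and 391 CPM in members against 1434 and 1104 in CD62L-low cells, 0.38-fold and 0.35-fold. Ifng, the cytokine of type 1 helper cells, had 3 and 8 UMIs in members against 95 and 54. Socs2, a suppressor of cytokine signalling, was 0.25-fold in both libraries.

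Other genes named for their difference were Hip1, Mdfic, Cpne7, Rcbtb2, Top2a, Smco4, Tnfrsf1b, Tnfsf14, Osbpl3 and Vav3, all lower in members, at 0.06-fold to 0.39-fold. Of 8 genes of type 1 helper cells, 4 were lower in both libraries. In the list of cell cycle genes 3 of 6 measured were lower, in that of trafficking 3 of 20 were higher and 5 lower, and in that of the T cell receptor complex 1 of 19 was lower. No gene of the lists for immediate early and heat shock genes (35 measured), glycolysis (14) or receptors of microbial metabolites (2) passed in both libraries. The interleukin-7 list had 1 of 11 lower, the interferon list 2 of 19 lower and the list of follicular helper genes 1 of 3 lower.

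**Figure D4:**
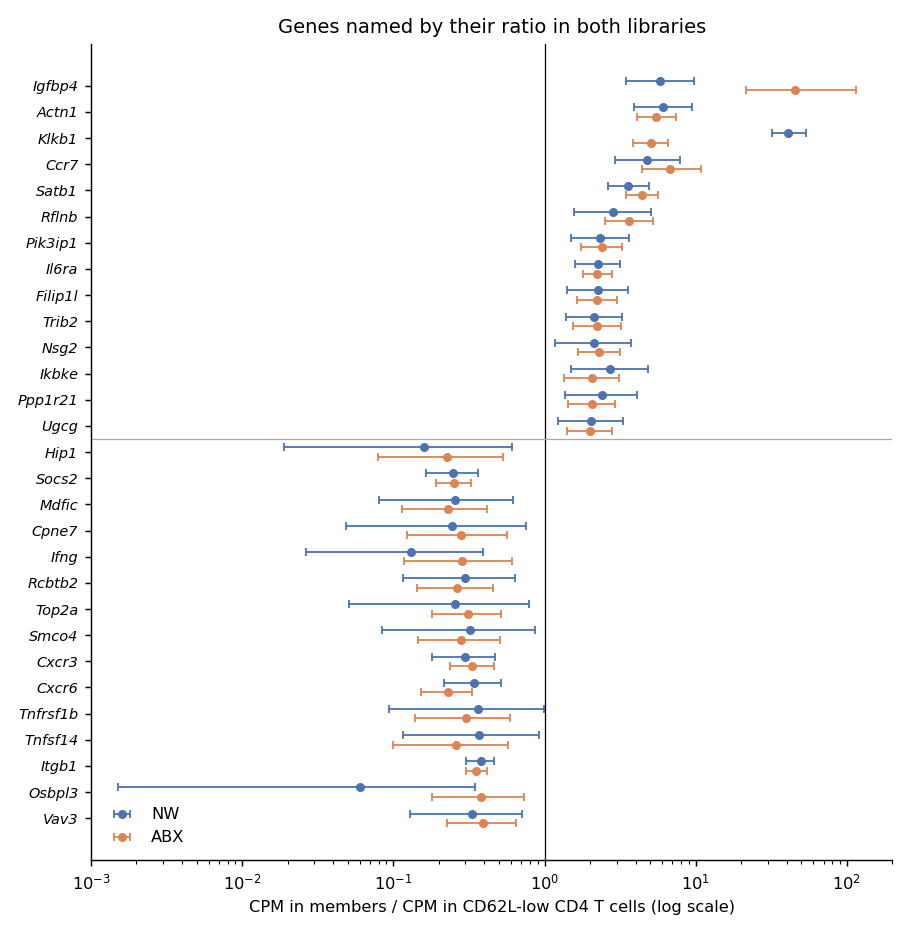
Ratio of CPM in members to CPM in CD62L-low CD4 T cells (log scale) for named genes in the NW and ABX library, with exact 95% intervals and a line at a ratio of 1. Igfbp4 in ABX (45.5-fold) and Klkb1 in NW (41.0-fold) stand out to the right, the former over 7 UMIs in CD62L-low cells and the latter with 537 of 652 UMIs in a single cell.

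Klkb1, which encodes plasma prekallikrein, was 41.0-fold higher in NW and 5.03-fold in ABX members, but its excess lay in the broadly stained cells. A single NW member held 537 of the 652 UMIs, and that cell had 149133 antibody UMIs but only 1109 UMIs of mRNA. In CD62L-dominant members Klkb1 was 2.23-fold and 1.56-fold over CD62L-low cells.

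With the broadly stained members left out the same contrast was wider. Of 6041 genes, 200 (3.31%) were higher and 517 (8.56%) lower in CD62L-dominant members in both libraries, with 21 of 35 naive genes higher, 1 lower, and 29 of 40 activation genes lower. Ccr7 was then 9.21-fold and 7.89-fold over CD62L-low cells, Lef1 3.66-fold and 3.05-fold, and Cxcr6 0.03-fold and 0.10-fold. Tcf7 stayed close, at 1.45-fold and 1.41-fold.

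The CD44 split showed the same in sums of lists. The naive genes summed to 20503 CPM (19314 to 21746) in NW and 19584 (19002 to 20179) in ABX CD44-low members, and to 10301 and 10419 in CD44-high members. The activation genes summed to 3069 (2620 to 3573) and 3100 (2871 to 3342) in CD44-low members, against 10707 and 9512 in CD44-high members and 14692 and 11042 in CD62L-low cells. Cd44 itself, whose protein set the split, had no UMI in the 16 NW and 7 UMIs in the 70 ABX CD44-low members. CD44-low members of the NW and ABX mice thus had overlapping sums of both lists.

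Markers of other cell types were present in the members as follows. The 9 B cell genes summed to 6105 CPM in NW and 6163 in ABX members against 3366 and 12744 in CD62L-low cells, none of the 9 at 0. By gene the ABX library went the other way than its sum. There 6 of the 9 were more than 1.5-fold higher in members and 1 lower, with a median of 1.73. Of all 7686 genes 775 were higher and 1284 lower. Ighm alone held 8475 UMIs in the ABX CD62L-low cells. Cd79a and Ms4a1 together reached 3 UMIs in 3 of the 43 NW and 5 of the 118 ABX members. The 9 macrophage genes summed to 2246 and 1481 CPM (1833 and 1530 in CD62L-low cells), and the 8 dendritic cell genes to 7464 and 5632 (4836 and 4984), again with none at 0. The CD8 genes Cd8a and Cd8b1 summed to 114 and 100 CPM against 27.4 and 48.8. Natural killer genes were 281 and 349 (272 and 244), and regulatory T cell genes 233 and 230 (339 and 429). Sums for type 2 innate lymphoid, gamma-delta T, endothelial, fibroblast, plasma and adipocyte genes were at most 184 CPM in members but for 408 of endothelial genes in ABX. Erythroid and platelet genes summed to 86.6 and 724 CPM, the latter with 332 of 346 UMIs in 1 cell. Of the 3 neutrophil genes 2 were at 0 in each library. At least 1 UMI of Cd79a, Ms4a1, Csf1r, Cd8b1 or Pecam1 occurred in 28 of 43 NW and 71 of 118 ABX members, and the part of these transcripts in the results was not tested. The mitochondrial share of UMIs was higher in members, at a median of 8.47% and 9.01%, than in CD62L-low cells, at 5.58% and 6.94%.

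Between the ABX and NW members most genes differed little, and the difference in the naive genes depended on which members were counted. Of 2340 genes with at least 50 UMIs, 235 (10%) were more than 1.5-fold higher and 197 (8.42%) lower in ABX. At 20 UMIs, the limit for lists, they were 15.4% and 14.2% of 5197 genes, with a median ratio of 1.00. Of 37 naive genes 6 were higher and none lower, with a median of 1.08, and of 28 activation genes 2 were higher and 9 lower, with a median of 0.763. The summed markers were 1553 CPM (1379 to 1744) in NW and 1858 (1738 to 1984) in ABX members, a ratio of 1.20 (1.05 to 1.37).

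That ratio turned with the make-up of the members. Without broadly stained members it was 0.847 (0.729 to 0.988), and among CD44-low members it was 0.877 (0.744 to 1.04). In CD62L-dominant members 3 of 37 naive genes were higher and 6 lower in ABX, with a median of 0.842, and 7 of 26 activation genes were higher and 8 lower, with a median of 0.884. The background there was 20.9% of 3911 genes higher and 16.8% lower, shares that the activation genes exceeded in both directions and the naive genes in neither. At 50 UMIs, 13.3% of 1544 genes were higher and 10.9% lower.

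Genes of the naive program gave different values per gene. Lef1 was 1.34-fold (1.02 to 1.78) in all members but 0.75-fold (0.56 to 1.00) in CD62L-dominant members. Ccr7 was 0.97-fold (0.66 to 1.45) and 0.58-fold (0.38 to 0.90), and Klf2, the factor that drives S1pr1, 0.85-fold (0.69 to 1.06) and 0.63-fold (0.49 to 0.82). Igfbp4 was 1.64-fold (1.15 to 2.38) and 1.20-fold (0.81 to 1.84), while in CD62L-low cells it was 0.21-fold. Il7r was 1.02-fold in all members and 0.74-fold (0.62 to 0.87) in CD62L-dominant members, close to its 0.72-fold in CD62L-low cells.

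Nr4a1, Tnfaip3 and Klf6, picked out here for their low values, were lower in ABX members with and without the broadly stained cells, and in CD62L-low cells too. Nr4a1, an early response gene of T cell receptor signalling, was 406 CPM (75 UMIs) in NW and 128 (61 UMIs) in ABX members, 0.31-fold (0.22 to 0.45). It was 0.32-fold (0.21 to 0.51) in CD62L-dominant members and 0.36-fold (0.28 to 0.46) in CD62L-low cells. Tnfaip3, a brake on NF-kappaB, was 0.40-fold (0.28 to 0.57), with 0.31-fold in CD62L-dominant and 0.49-fold in CD62L-low cells. Klf6, an early response zinc finger factor, was 0.59-fold (0.48 to 0.74), 0.51-fold and 0.48-fold. Over all members the list of immediate early and heat shock genes, which holds Tnfaip3 and Klf6, did not move as a whole. There 4 of 33 were higher and 7 lower against 15.4% and 14.2% of all genes, with a median of 0.912. Egr1 was 1.73-fold (0.98 to 3.25). In CD62L-dominant members alone the list lay lower in ABX, with 1 of 32 higher and 8 lower and a median of 0.836. The shares of all genes there were 20.9% higher and 16.8% lower.

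Of the other genes ranked by their ratio, those at the top came from single cells. All 160 Hba-a1, all 118 Hba-a2 and 172 of 174 Hbb-bs UMIs, which encode haemoglobin chains, lay in 1 ABX member, against none in NW. Counted against 3 UMIs in NW, they were at least 20.6-fold, 15.2-fold and 22.4-fold higher. Fabp4, a lipid carrier of adipocytes and endothelium, was 26.7-fold higher with 99 of 138 UMIs in 1 cell, and the cytokine gene Il1b was 11.4-fold higher with 52 of 59 in 1 cell. Spread over more cells were Irgm1 at 3.56-fold, Smurf2 at 3.48-fold, Rasa2 at 3.14-fold, Dhx40 at 2.83-fold and Ncoa7 at 2.82-fold, each with 5 to 8 UMIs in NW.

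Lower in ABX members were Klkb1 (0.13-fold), Irf8 (0.22-fold), Anxa1 (0.30-fold), Ppt1 (0.33-fold), Mrpl33 (0.37-fold), Rc3h1 (0.38-fold) and Cebpb (0.40-fold). Several of these did not stay lower without the broadly stained cells. In CD62L-dominant members Klkb1 was 0.71-fold (0.40 to 1.34), Irf8 2.75-fold (0.87 to 13.9) and Ppt1 1.25-fold (0.48 to 4.14). Anxa1 had 0 UMIs in NW and 10 in ABX there. Mrpl33 was 0.45-fold (0.20 to 1.07) and Cebpb 0.34-fold (0.17 to 0.70). Irf8, a factor of myeloid and dendritic cells, had 34 of its 86 NW UMIs in 1 cell and only 3 UMIs in NW CD62L-dominant members. Rc3h1, which encodes the RNA-binding protein roquin, was 0.36-fold (0.20 to 0.66) in CD62L-dominant members and 0.96-fold in CD62L-low cells.

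Among CD62L-dominant members alone, the largest ratios were those of Rfx7 (11.4-fold), Nkg7 (10.9-fold), Arglu1 (6.62-fold), Naaa (6.13-fold), Cybb (4.61-fold) and Ccl5 (4.33-fold). Rfx7 rested on 1 NW UMI, with an interval of 1.95 to 458, and 40 of the 55 ABX Naaa UMIs and 26 of the 62 ABX Cybb UMIs lay in 1 cell each. Ccl5, a chemokine of effector and memory T cells, had 15 UMIs in 3 of the 22 NW cells and 291 in 21 of the 95 ABX cells. Nkg7, a gene of cytotoxic granules, had 1 UMI in NW and 49 in 12 ABX cells. In CD44-low members 12.5% (1.55 to 38.3) of the NW cells had a Ccl5 UMI, as had 8.57% (3.21 to 17.7) of the ABX cells, shares with overlapping intervals. Its level there was 55.5 CPM (11.4 to 162, 3 UMIs) in NW and 315 (245 to 399, 69 UMIs) in ABX, with 47 of the 69 UMIs in 1 cell. The CD62L-dominant, CD44-high cells, 7 in NW and 25 in ABX, held 222 of the 291 ABX Ccl5 UMIs.

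**Figure D5:**
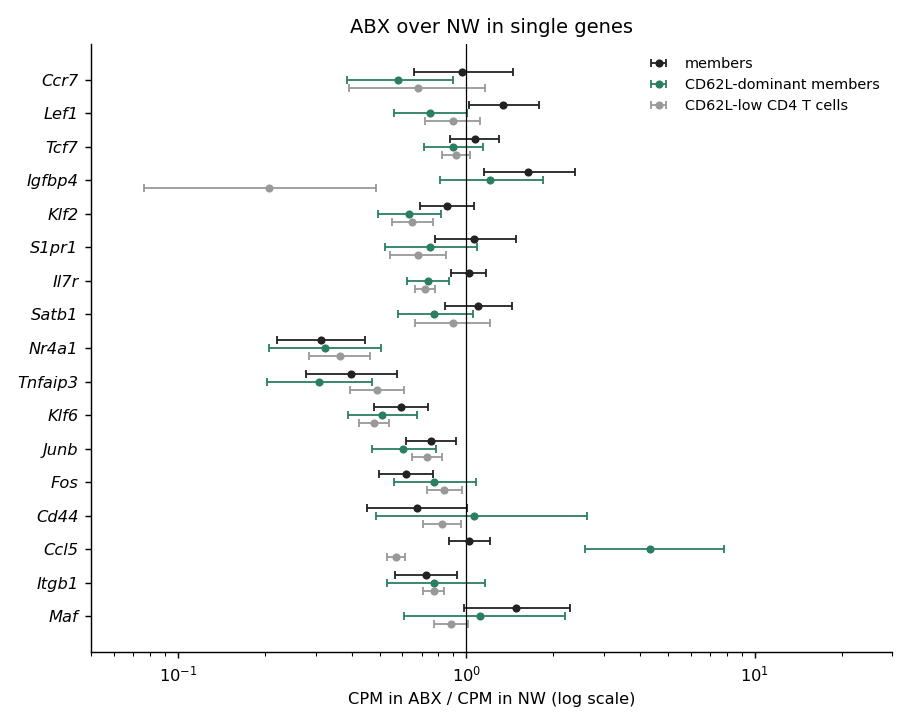
Ratio of CPM in ABX to CPM in NW (log scale) for single genes in all members, in CD62L-dominant members and in CD62L-low CD4 T cells, with exact 95% intervals and a line at a ratio of 1. Nr4a1, Tnfaip3 and Klf6 lie below 1 in each of the 3 kinds of cell, whereas Lef1 and Igfbp4 move with the make-up of the members.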

How the data were processed

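Cells were measured by the BD Rhapsody whole transcriptome assay with antibody tags. The authors deposited UMI counts per gene and antibody for each barcode, made with the BD pipeline v1.8 on GRCm38 (mm10 in the labels, which also name R 3.6.0 and Seurat 3.0.1). The files held 10 antibodies, of which the study's methods do not list CD3 and NK1.1. Barcodes with at least 500 mRNA UMIs, 200 genes and at most 25% mitochondrial UMIs were kept, 12474 of 17662 (NW) and 12724 of 17785 (ABX), with medians of 5092 and 3846 UMIs. The libraries shared 371 barcodes, none among members. Cells were summed per kind. Shares carry exact Clopper-Pearson intervals, share ratios log-ratio intervals, and CPM and their ratios exact Poisson intervals (scipy 1.17.1, Python 3.11.15), tested on simulated data. No count model was fitted, having 1 library per condition. CD8 T cells met the same Cd3, TCRb, C1q and Cdh5 limits with a Cd8a or Cd8b1 UMI, the CD8b antibody at 15 or more and CD4 below 10. B cells held Cd79a and Ms4a1, and macrophages at least 20 C1q UMIs, without Cd3. Scrublet in scanpy 1.11.5 called 344 NW cells and 1 ABX cell, so it did not work on ABX, and no member was called or removed. Genes were named by rank of the smaller ratio of both libraries (15 each way) or of the ABX to NW ratio at 50 UMIs (10 each way), plus gene lists. The members and lists were chosen with earlier results of these data known. Alternatives varied limits, scaling, doublets and comparison cells. Some genes that met the naming rule are not reported here.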

Additional observations from a re-analysis of the deposited data

Results flagged for a closer look

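For 3 genes the members differed from CD62L-low cells in opposite directions in the NW and ABX libraries, and with 1 library each these differences between libraries were not tested. Dhx40 was 0.415-fold (0.146 to 0.956, 6 UMIs in members) in NW and 1.63-fold (1.07 to 2.49) in ABX. Rc3h1 was 1.61-fold (1.08 to 2.36) in NW and 0.632-fold (0.424 to 0.924) in ABX. Ighm, the heavy chain of immunoglobulin M, was 2.19-fold (1.797 to 2.66) in NW and 0.0918-fold (0.0829 to 0.101) in ABX, where the CD62L-low cells held 8475 UMIs, up to 1756 of them in a single cell. Among 204 genes screened, only these were more than 1.5-fold apart in opposite directions with both intervals clear of 1.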

How the results depend on the processing

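Leaving out kinds of members and applying the NW doublet threshold to both libraries were chosen after seeing the data, and the other alternatives were planned. The ABX to NW ratio of the members' share of all cells was 1.36 with the gene limits left out, and 4.23 without broadly stained members, 4.66 without members of 15 or more CD8b antibody UMIs and 4.29 without those of 100 or more CD44. Its value among CD4 T cells was 3.41, 3.75 and 3.45 in the last 3 of these, and the share of CD4 T cells reversed to 0.689 without the gene limits. Genes higher and lower in ABX members numbered 235 and 197 of 2340 in the main setting. They were 800 and 739 of 5197 at 20 UMIs and 61 and 54 of 1052 at 100 UMIs. Without members holding a lineage gene they were 95 and 68 of 634, and in CD44-low members 123 and 101 of 858. Below the CD8b limit they were 154 and 138 of 1126. The summed markers' ABX to NW ratio was 1.49 without lineage-gene members. It reversed to 0.946 (0.847 to 1.06) at a CD62L limit of 10 and 0.847 (0.729 to 0.988) without broadly stained members. Below the CD8b limit it was 0.891 (0.750 to 1.06) and in CD44-low members 0.877 (0.744 to 1.04). Over CD62L-low cells the sum was 2.50, 2.53 and 3.25 in NW and 2.40, 2.55 and 3.23 in ABX under the last 3 settings, and in ABX 1.76 at a CD62L limit of 10 and 2.47 without lineage-gene members. The median of the naive list reversed, that is crossed 1, to 0.999, 0.842, 0.851 and 0.897 at a CD62L limit of 10 and under the same 3 settings. Each of these had an interval that held 1. The median of the activation list reversed to 1.23 (0.584 to 1.98, 12 genes) in CD44-low members. That of immediate early genes was 0.781 at a CD62L limit of 30. The causes were not tested. Of all alternatives, 109 kept their direction within the error, 34 moved and 10 reversed. No paired analysis was possible because each condition had 1 library. Depth limits single genes, since CD44-low members held 54090 UMIs in NW.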

Other observations

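Interferon-stimulated genes were on the higher side in ABX members, where 7 of 18 measured were more than 1.5-fold higher and 1 lower, with a median ratio of 1.25, against 15.4% and 14.2% of all genes. In CD62L-dominant members 1 of 15 was higher and 1 lower, and the list summed to 4510 CPM in NW and 4445 in ABX. In broadly stained members it summed to 3789 and 6585, with 221 of the 693 ABX UMIs in 1 cell. Genes of the T cell receptor complex had a median of 1.20 in ABX over NW members, with 5 of 19 higher and none lower. In CD62L-dominant members the median was 1.06, with 3 of 19 higher and 1 lower, against 20.9% and 16.8% of all genes. Of these Cd5, a brake on receptor signalling, was 2.41-fold (1.33 to 4.72) higher and stayed 2.49-fold (1.15 to 6.39) in CD62L-dominant members, against 0.83-fold in CD62L-low cells. Mki67, a gene of dividing cells, had 8 UMIs in NW and 6 in ABX members, 0.56-fold and 0.05-fold of CD62L-low cells.

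Antigen receptor variable genes were sparse. A Trbv UMI was seen in 12 of 43 NW and 16 of 118 ABX members, and no Trbv gene in more than 3 cells of a library, so that no clone could be followed.

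Klkb1 UMIs rose with the antibody UMIs of a cell over the whole of both libraries. Their mean was 0.232 per cell in the 7678 NW cells with fewer than 300 antibody UMIs and 224 in the 38 cells with 10000 or more. In ABX the means were 0.171 and 45.3. The cause was not tested.

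An NW broadly stained member held 34 Siglech UMIs, a marker of plasmacytoid dendritic cells, and the 33 Ccr9 UMIs of the NW members had no counterpart in ABX, where Ccr9 had none.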
